A study of Mus musculus with 12 samples.

Results

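The 32 genes described here encode the enzymes and carriers that activate fatty acids, move them into mitochondria and break them down there and in peroxisomes, together with 3 genes known to respond to fatty acid supply. They were taken as a named list by function, and matched to the count table by Ensembl gene ID: 32 of the 54532 gene IDs in the table. All 32 passed the filter on low counts. RNA was sequenced from bone marrow-derived macrophages (BMDMs), macrophages grown out of mouse marrow, to ask how GPNMB, a glycoprotein of the lysosome and cell surface, bears on foam cell formation. The 12 libraries form 4 groups of 3: OxLDL-treated cells of GpnmbR150X mice, OxLDL-treated cells of control (WT) mice, untreated GpnmbR150X cells and untreated WT cells. Treated and untreated libraries carry separate runs of sample numbers, and any difference in handling between them cannot be told apart from OxLDL. R150X is a premature stop allele of Gpnmb. OxLDL is oxidised low-density lipoprotein, which macrophages take up until they fill with lipid. Both genotypes are labelled with the same background, a DBA/2 and C57BL/6 cross backcrossed to C57BL/6, in the treated and the untreated groups alike. The labels give no age, sex, OxLDL dose or treatment time, and do not say whether the 3 replicates of a group came from separate mice or cultures, so the p-values measure the spread between these libraries, which may be technical.

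The libraries held 14838969 to 18222868 counts assigned to genes. Gpnmb itself was at 706 ± 16.3 CPM in OxLDL-treated R150X cells and 12508 ± 136 CPM in OxLDL-treated WT cells, and at 385 ± 23.9 CPM in untreated R150X cells and 5330 ± 37.8 CPM in untreated WT cells (SD, n = 3 each; CPM, each count as a share of its TMM-scaled library). Macrophage markers summed to 20135 to 21539.6, 23686 to 25355, 21162 to 21976 and 19638 to 19957 CPM in the same order of groups, and none of the 8 was at 0. Untreated R150X replicate 1 stood apart from replicates 2 and 3 of its group, with a chi-square per degree of freedom of 10.1 and 11.0, against 2.40 to 5.11 for every other pair of replicates. Xist, which is transcribed from the inactive X chromosome, was at 228 to 349 CPM in the 6 R150X libraries and at most 2.75 CPM in the 6 WT libraries. The labels give no sex, and a difference in sex between the mice cannot be told apart from the genotype in any comparison of R150X with WT.

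Long-chain fatty acids are first joined to coenzyme A by acyl-CoA synthetases. The acyl group is then passed to carnitine by Cpt1a on the outer mitochondrial membrane, the step that malonyl-CoA restrains, carried across the inner membrane by Slc25a20 and returned to coenzyme A by Cpt2. In the matrix each turn of beta-oxidation runs through dehydrogenation, hydration, a further dehydrogenation and thiolysis, and electrons leave through the electron transfer flavoprotein. Peroxisomes run a parallel pathway for very long and branched chains. In macrophages this pathway is known for burning fatty acids freed from lipoproteins, and several of its genes are known targets of the fatty acid-sensing PPAR receptors.

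RefSeq promoter windows (GRCm38.p6, 250 bases before to 50 after the annotated start) were found for 27 of the 32 genes, in 28 windows, since Acsl1 has a pair of starts. Those of 4 genes described below are printed 5′ to 3′: Cpt1a and Acox3, which rose with OxLDL in both genotypes, Hadhb, which shares its start region with Hadha, and Acsl1, which fell. The part of these sequences in the responses was not tested. Capitals mark matches, on either strand, to the nuclear receptor core motif AGGTCA or to the GC box GGGCGGGG. The windows are chr19:3323051-3323350, chr5:35582784-35583083, chr5:30155003-30155302 and chr8:46470787-46471086, all on the plus strand.
Cpt1a: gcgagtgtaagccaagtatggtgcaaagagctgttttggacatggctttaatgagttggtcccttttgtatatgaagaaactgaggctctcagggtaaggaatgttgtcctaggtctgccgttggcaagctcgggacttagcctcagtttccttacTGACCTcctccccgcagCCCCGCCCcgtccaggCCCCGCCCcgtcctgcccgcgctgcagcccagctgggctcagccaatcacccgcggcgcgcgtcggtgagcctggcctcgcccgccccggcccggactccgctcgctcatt
Acox3: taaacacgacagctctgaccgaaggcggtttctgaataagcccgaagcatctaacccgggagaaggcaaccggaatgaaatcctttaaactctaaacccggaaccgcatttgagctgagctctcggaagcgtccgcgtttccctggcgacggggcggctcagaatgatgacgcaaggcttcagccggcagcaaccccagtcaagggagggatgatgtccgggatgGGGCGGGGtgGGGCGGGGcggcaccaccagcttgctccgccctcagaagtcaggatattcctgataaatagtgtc
Hadhb: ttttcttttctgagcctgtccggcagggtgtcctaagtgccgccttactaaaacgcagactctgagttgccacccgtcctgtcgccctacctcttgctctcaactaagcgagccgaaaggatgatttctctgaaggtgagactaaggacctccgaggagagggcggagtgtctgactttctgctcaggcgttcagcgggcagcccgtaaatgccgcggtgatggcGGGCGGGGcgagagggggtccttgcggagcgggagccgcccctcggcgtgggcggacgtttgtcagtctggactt
Acsl1: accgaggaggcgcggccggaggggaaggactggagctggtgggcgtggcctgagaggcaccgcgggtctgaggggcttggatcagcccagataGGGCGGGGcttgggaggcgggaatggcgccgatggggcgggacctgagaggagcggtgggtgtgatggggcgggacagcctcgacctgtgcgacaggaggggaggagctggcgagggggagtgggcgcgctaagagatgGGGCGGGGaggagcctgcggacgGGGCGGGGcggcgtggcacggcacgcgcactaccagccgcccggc

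The Cpt1a window held 1 AGGTCA match and 2 GC boxes, that of Acox3 held 2 GC boxes, that of Hadhb 1, and the upstream Acsl1 window 3. Over all members, AGGTCA was found in 14.3% of windows (those of Acadm, Acadvl, Cpt1a and Echs1), against 16.3% of all promoters in the table and 12.4% of those of the genes tested here. The PPAR-type direct repeat, AGGTCA repeated after 1 base, was in 0 member windows and 0.0396% of all promoters, and TGACCTTG, the element of estrogen-related receptors, in 0 member windows and 1.56% of all promoters, and both motifs contain AGGTCA on one or the other strand. GGGCGGGG was in 57.1% of member windows, against 17.6% of all promoters and 30.8% of those of the genes tested. Hadha and Hadhb lie head to head: the RefSeq starts of their windows are 273 bases apart on opposite strands, and the windows share 228 bases. The motifs were chosen with earlier results known, and a match or its absence describes these letters only.

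Per length, the members spanned a wide range of levels. Ucp2, an inner mitochondrial membrane carrier, had the highest RPKM (CPM per kilobase of exon) in every group, 119, 166, 109 and 111 in OxLDL-treated R150X, OxLDL-treated WT, untreated R150X and untreated WT cells. The lowest was Acsl3 in the OxLDL-treated groups (3.84 RPKM in R150X and 3.40 in WT) and Etfb in the untreated groups (3.41 in R150X and 2.11 in WT). The medians of the 32 genes lay close together, at 12.05, 11.9, 11.2 and 10.3 RPKM in the same order. Of the 31 pairs of neighbours in the order of levels, the libraries did not overlap for 14, 12, 7 and 10 pairs, so most neighbours did not differ beyond their spread. The summed level of the 4 synthetases was 48.8 ± 1.39 RPKM in OxLDL-treated R150X cells and 90.8 ± 0.278 in untreated R150X cells, and 44.2 ± 0.776 in OxLDL-treated WT cells and 73.5 ± 1.64 in untreated WT cells (SD, n = 3 each).

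**Figure D1:**
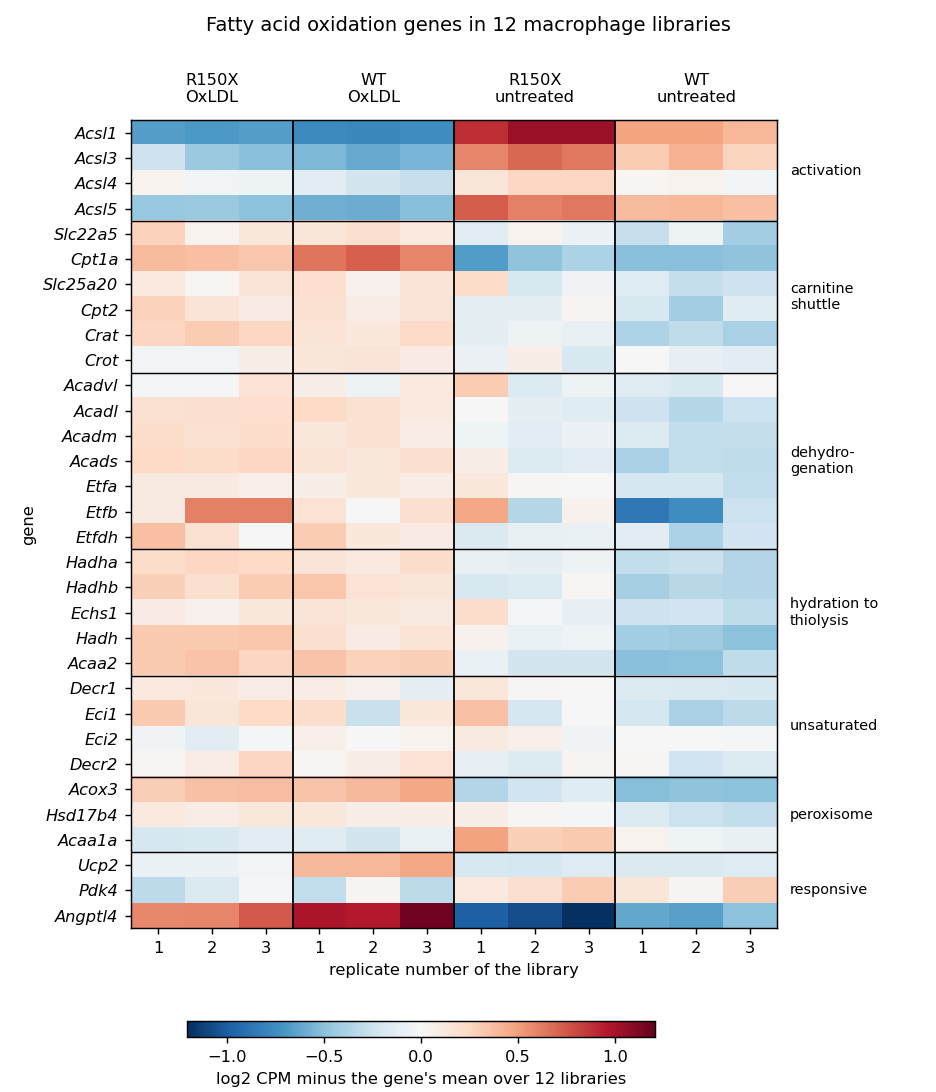
Heat map of the 32 genes (rows, in order of role) in the 12 libraries (columns, 3 replicates in each of the 4 groups), coloured by log2 CPM minus the gene's mean over the 12 libraries. The synthetases Acsl1, Acsl3 and Acsl5 are low (blue) in the OxLDL-treated groups, and Angptl4, Cpt1a and Acox3 are high (red) there.

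With OxLDL, the 4 acyl-CoA synthetases among the members fell, while most genes of the later steps that passed the test rose. Of the 32 members, 14 rose and 6 fell in R150X cells, where 39.0% of all 15338 genes tested passed the threshold (adjusted p under 0.05, edgeR quasi-likelihood test), 18.4% higher and 20.6% lower. In WT cells 22 rose and 5 fell, where 45.8% of all genes passed, 22.7% higher and 23.1% lower. The median member log2 fold change was 0.19 in R150X cells and 0.38 in WT cells, against 0.0039 and 0.014 over all genes tested. The carnitine shuttle, the matrix enzymes and Acox3 made up most of the genes that rose, all 4 synthetases fell in both genotypes, and 14 genes rose and 5 fell in both. The libraries of the compared groups did not overlap for 21 members in R150X and 27 in WT, against 46.4% and 55.9% of all genes. With library size alone as the scaling, the median of all genes in WT shifted by -0.11 on the log2 scale, and 20 members passed as higher and 6 as lower, Acaa1a being the added one.

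**Figure D2:**
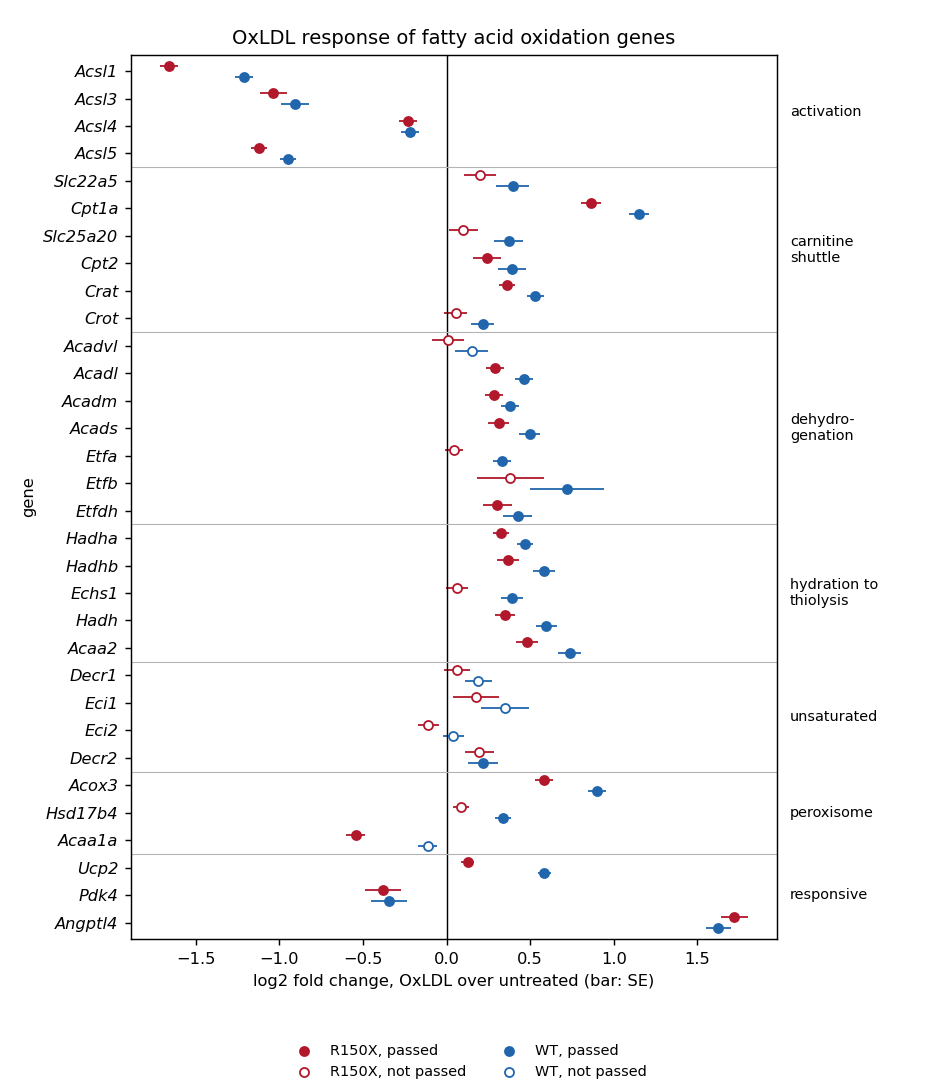
Log2 fold change of each gene (rows, by role) in OxLDL-treated over untreated cells, for R150X (red) and WT (blue), with SE bars from the fit over 12 libraries; filled points passed adjusted p under 0.05. The 4 synthetases at the top lie left of 0 in both genotypes, and the WT point lies to the right of the R150X point for every gene but Angptl4.

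The 4 acyl-CoA synthetases among the members, which make the substrate of both oxidation and lipid storage, fell together. Acsl1, the synthetase associated with mitochondria in many tissues, fell to 0.317 times its untreated level in R150X cells and 0.432 times in WT cells. Acsl1 had 56.2, 55.0 and 56.2 CPM in OxLDL-treated R150X libraries, against 165, 182 and 181 CPM in untreated R150X libraries (log2 fold change -1.66 ± 0.053 SE, adjusted p = 2.3e-16). In WT the values were 52.2, 51.8 and 52.9 CPM with OxLDL, against 123, 123 and 117 CPM without it (log2 fold change -1.21 ± 0.054 SE, adjusted p = 5.81e-14). Every treated library was below every untreated one. Acsl5, a synthetase of the endoplasmic reticulum and mitochondria, followed the same direction. Acsl5 had 95.7, 96.3 and 93.1 CPM in OxLDL-treated R150X libraries, against 218, 199 and 204 CPM in untreated R150X libraries (log2 fold change -1.12 ± 0.049 SE, adjusted p = 4.8e-14). WT libraries had 87.0, 86.6 and 91.8 CPM of Acsl5 with OxLDL, against 171, 173 and 169 CPM without it (log2 fold change -0.95 ± 0.050 SE, adjusted p = 9.34e-13). Acsl5 did not overlap between treated and untreated libraries either. Acsl3, known from lipid droplet growth, fell, with log2 fold changes of -1.04 ± 0.081 (SE) in R150X cells and -0.90 ± 0.084 in WT cells. Acsl4, which prefers arachidonic acid, fell least, with -0.23 ± 0.054 and -0.22 ± 0.055. The share of the summed synthetase RPKM that was Acsl4 was 41.2 ± 0.510% in OxLDL-treated R150X cells and 26.0 ± 1.05% in untreated ones, and 39.8 ± 1.73% in OxLDL-treated WT cells and 27.9 ± 0.164% in untreated ones (SD, n = 3 each).

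Of the 6 genes of carnitine uptake and transfer, 3 rose in R150X cells and all 6 in WT cells. Cpt1a, the regulated entry step, changed most, reaching 1.82 times its untreated level in R150X and 2.22 times in WT. Cpt1a had 189, 187 and 181 CPM in OxLDL-treated R150X libraries, against 91.3, 104 and 111 CPM in untreated R150X libraries (log2 fold change 0.86 ± 0.060 SE, adjusted p = 1.22e-10). The WT values of Cpt1a were 227, 239.8 and 218 CPM in treated and 102, 102 and 104 CPM in untreated libraries (log2 fold change 1.15 ± 0.060 SE, adjusted p = 7.63e-13). The treated and untreated libraries did not overlap in either genotype. Crat, which moves acetyl groups onto carnitine, rose by 0.36 ± 0.049 in R150X and 0.53 ± 0.050 in WT on the log2 scale, and Cpt2 by 0.24 ± 0.084 and 0.39 ± 0.086 (SE). The Cpt2 call in R150X was lost without any of 4 libraries in turn (untreated R150X replicates 1 and 2, OxLDL-treated R150X replicates 1 and 2; adjusted p = 0.0544 to 0.129) and with no filter on low counts (0.0595). The carnitine transporter Slc22a5, the translocase Slc25a20 and the peroxisomal transferase Crot passed in WT only at this threshold, at 0.40 for Slc22a5, 0.37 for Slc25a20 and 0.22 for Crot, against 0.20 for Slc22a5, 0.10 for Slc25a20 and 0.055 for Crot in R150X. Their genotype difference in response did not pass the interaction test (adjusted p = 0.436, 0.195 and 0.358), and without untreated R150X replicate 1 Slc25a20 passed in R150X as well (log2 0.21, adjusted p = 0.0353). The WT call of Crot was lost with library size scaling (adjusted p = 0.246) and without untreated WT replicate 3 (adjusted p = 0.0614). The ratio of Cpt1a to Cpt2, in RPKM, was 2.21 ± 0.0952 with OxLDL and 1.43 ± 0.0882 without it in R150X, and 2.79 ± 0.219 and 1.65 ± 0.165 in WT (SD, n = 3 each).

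Among the acyl-CoA dehydrogenases, which open each turn of the cycle, and the flavoproteins that take their electrons, 4 of 7 rose in R150X and 6 of 7 in WT, and 0 fell in either. These were 57.1% and 85.7% of this role, against 39.0% and 45.8% of all genes. The long-chain dehydrogenase Acadl had the smallest coefficient of variation of the 32 members in OxLDL-treated R150X cells, 0.625%. Acadl had 98.2, 98.7 and 99.4 CPM in OxLDL-treated R150X libraries, against 85.7, 79.6 and 77.7 CPM in untreated R150X libraries (log2 fold change 0.29 ± 0.054 SE, adjusted p = 0.000214). In WT the values were 102, 97.8 and 93.2 CPM with OxLDL, against 72.5, 67.7 and 72.1 CPM without it (log2 fold change 0.46 ± 0.055 SE, adjusted p = 4.27e-07). The groups did not overlap. Acadm and Acads, for medium and short chains, rose by 0.28 ± 0.053 and 0.31 ± 0.063 in R150X and by 0.38 ± 0.054 and 0.50 ± 0.064 in WT (log2, SE). Etfdh, which hands the electrons to ubiquinone, rose by 0.30 ± 0.087 in R150X and 0.42 ± 0.087 in WT, and its R150X call was lost without OxLDL-treated R150X replicate 1 (adjusted p = 0.0745). Etfa and Etfb, the subunits of the electron transfer flavoprotein, rose in WT, by 0.33 ± 0.055 and 0.72 ± 0.22. In R150X they stood at 0.044 ± 0.054 and 0.38 ± 0.20 and did not pass, except Etfb without untreated R150X replicate 1 (log2 0.59, adjusted p = 0.0276). Etfb, with 776 counts over the 12 libraries, was among the least precise members, and its WT call was lost without untreated WT replicate 1 (adjusted p = 0.0546). Etfb shares 53.01% of its exon bases with the annotated gene Gm45233 on the same strand, which held 3 counts in all. Acadvl, for the longest chains, did not pass in either genotype (log2 0.0080 in R150X and 0.15 in WT); 42.85% of its exon bases lie opposite Dvl2, and no strand setting is stated for the counting, which leaves its values uncertain.

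The enzymes of hydration, the further dehydrogenation and thiolysis mostly rose: 4 of 5 in R150X, the exception being Echs1, and 5 of 5 in WT. Of all genes, 39.0% passed in R150X and 45.8% in WT. Hadha and Hadhb encode the alpha and beta subunits of the mitochondrial trifunctional protein. Hadha had 174, 178 and 177 CPM in OxLDL-treated R150X libraries, against 140.4, 138 and 143 CPM in untreated R150X libraries (log2 fold change 0.32 ± 0.047 SE, adjusted p = 8.24e-06). WT libraries had 166, 162 and 173 CPM of Hadha with OxLDL, against 122, 124 and 117 CPM without it (log2 fold change 0.47 ± 0.047 SE, adjusted p = 3.73e-08). Each treated Hadha library was above each untreated one of its genotype. Hadhb, which starts head to head with Hadha, rose by 0.37 ± 0.065 in R150X and 0.58 ± 0.066 in WT, and the ratio of Hadha to Hadhb in RPKM stayed within 1.68 to 2.05 over the 12 libraries. Acaa2, the thiolase that releases acetyl-CoA in mitochondria, had the largest WT rise of the 5. Acaa2 had 47.6, 48.7 and 45.9 CPM in OxLDL-treated R150X libraries, against 36.3, 33.0 and 32.9 CPM in untreated R150X libraries (log2 fold change 0.48 ± 0.067 SE, adjusted p = 5.41e-06). The WT values of Acaa2 were 48.7, 46.6 and 46.7 CPM in treated and 27.0, 27.3 and 31.1 CPM in untreated libraries (log2 fold change 0.74 ± 0.068 SE, adjusted p = 1.03e-08). Treated and untreated Acaa2 libraries did not overlap in either genotype. Hadh, the dehydrogenase for medium and short hydroxyacyl chains, rose by 0.35 ± 0.060 in R150X and 0.60 ± 0.062 in WT. Echs1, the hydratase, rose by 0.39 ± 0.066 in WT and was at 0.063 ± 0.066 in R150X, where it did not pass except without untreated R150X replicate 1 (adjusted p = 0.0261). The summed level of 9 matrix enzymes (the 4 dehydrogenases, Hadha, Hadhb, Echs1, Hadh and Acaa2) was 188 ± 1.41 RPKM with OxLDL and 153 ± 8.58 without it in R150X, and 183 ± 3.63 and 131 ± 2.40 in WT (SD, n = 3 each).

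The auxiliary enzymes for unsaturated chains moved little. Of Decr1, Eci1, Eci2 and the peroxisomal Decr2, 0 passed in R150X, and Decr2 alone in WT, at a log2 fold change of 0.22 ± 0.087 (adjusted p = 0.0461), a call lost with library size or relative log expression scaling, with no filter on low counts, with DESeq2 and without any of 4 libraries (adjusted p = 0.0536 to 0.348). The values of the others were 0.063 for Decr1, 0.18 for Eci1 and -0.11 for Eci2 in R150X and 0.19 for Decr1, 0.35 for Eci1 and 0.040 for Eci2 in WT, with Eci2 on the other side of 0 in WT under library size scaling. Some of these passed in an alternative: Eci1 in WT without OxLDL-treated WT replicate 2 (adjusted p = 0.0114) and with only the WT groups in the fit (0.0371), Decr1 in WT without OxLDL-treated WT replicate 3 (0.0226), and Decr2 in R150X without untreated R150X replicate 3 (0.0456).

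The 3 enzymes grouped under the peroxisome did not move alike. Acox3, an acyl-CoA oxidase of branched chains, rose in both genotypes. Acox3 had 247, 257 and 261 CPM in OxLDL-treated R150X libraries, against 158, 170.0 and 182 CPM in untreated R150X libraries (log2 fold change 0.58 ± 0.053 SE, adjusted p = 1.1e-08). In WT the values were 256, 265 and 278 CPM with OxLDL, against 141, 144 and 143 CPM without it (log2 fold change 0.90 ± 0.054 SE, adjusted p = 8.53e-12). No treated library overlapped an untreated one. Hsd17b4, the bifunctional enzyme that follows it, rose by 0.34 ± 0.050 in WT and was at 0.087 ± 0.049 in R150X, not past the threshold. Acaa1a, the peroxisomal thiolase, fell in R150X. Acaa1a had 143, 145 and 149.99 CPM in OxLDL-treated R150X libraries, against 231, 202 and 206 CPM in untreated R150X libraries (log2 fold change -0.54 ± 0.057 SE, adjusted p = 1.03e-07). WT libraries had 149, 142 and 156 CPM of Acaa1a with OxLDL, against 169.7, 159 and 155 CPM without it (log2 fold change -0.11 ± 0.057 SE, adjusted p = 0.117). The libraries did not overlap in R150X and overlapped in WT. In WT its call depended on the setting, passing with library size scaling (adjusted p = 0.00219) and with only the WT groups in the fit (adjusted p = 0.0398). Acaa1a has a close paralog, Acaa1b, which was at 0.36 to 0.72 CPM in the group means.

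The 3 genes regulated by fatty acid supply split. Angptl4, a secreted inhibitor of lipoprotein lipase, had the largest rise of the 32 members in both genotypes, 3.30-fold in R150X and 3.08-fold in WT. Angptl4 had 56.4, 56.7 and 62.8 CPM in OxLDL-treated R150X libraries, against 19.1, 18.04 and 16.4 CPM in untreated R150X libraries (log2 fold change 1.72 ± 0.079 SE, adjusted p = 1.02e-13). The WT values of Angptl4 were 74.6, 73.4 and 85.0 CPM in treated and 24.7, 24.0 and 26.8 CPM in untreated libraries (log2 fold change 1.62 ± 0.074 SE, adjusted p = 9.23e-14). No treated library of Angptl4 overlapped an untreated one. Ucp2, a carrier in the inner mitochondrial membrane, rose more weakly. Ucp2 had 821, 826 and 852 CPM in OxLDL-treated R150X libraries, against 760.0, 749 and 781 CPM in untreated R150X libraries (log2 fold change 0.13 ± 0.039 SE, adjusted p = 0.0136). In WT the values were 1138, 1144 and 1196 CPM with OxLDL, against 768, 771 and 779.7 CPM without it (log2 fold change 0.59 ± 0.039 SE, adjusted p = 5.03e-11). The R150X groups of Ucp2 lay within 749 to 852 CPM, and the call there was lost without untreated R150X replicate 2 or OxLDL-treated R150X replicate 3 (adjusted p = 0.0544 and 0.0557), without the filter on low counts (0.0622) and with only the R150X groups in the fit (0.0572). Pdk4, the kinase that shuts pyruvate dehydrogenase, fell. Pdk4 had 13.3, 14.6 and 16.3 CPM in OxLDL-treated R150X libraries, against 17.997, 18.9 and 20.5 CPM in untreated R150X libraries (log2 fold change -0.38 ± 0.11 SE, adjusted p = 0.00778). WT libraries had 13.5, 16.9 and 13.3 CPM of Pdk4 with OxLDL, against 18.4, 16.9 and 20.3 CPM without it (log2 fold change -0.35 ± 0.11 SE, adjusted p = 0.0129). The treated and untreated libraries of Pdk4 were apart in R150X and overlapped in WT. The WT call of Pdk4 was lost without untreated WT replicate 3 or OxLDL-treated WT replicate 1 or 3 (adjusted p = 0.0668 to 0.0757).

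**Figure D3:**
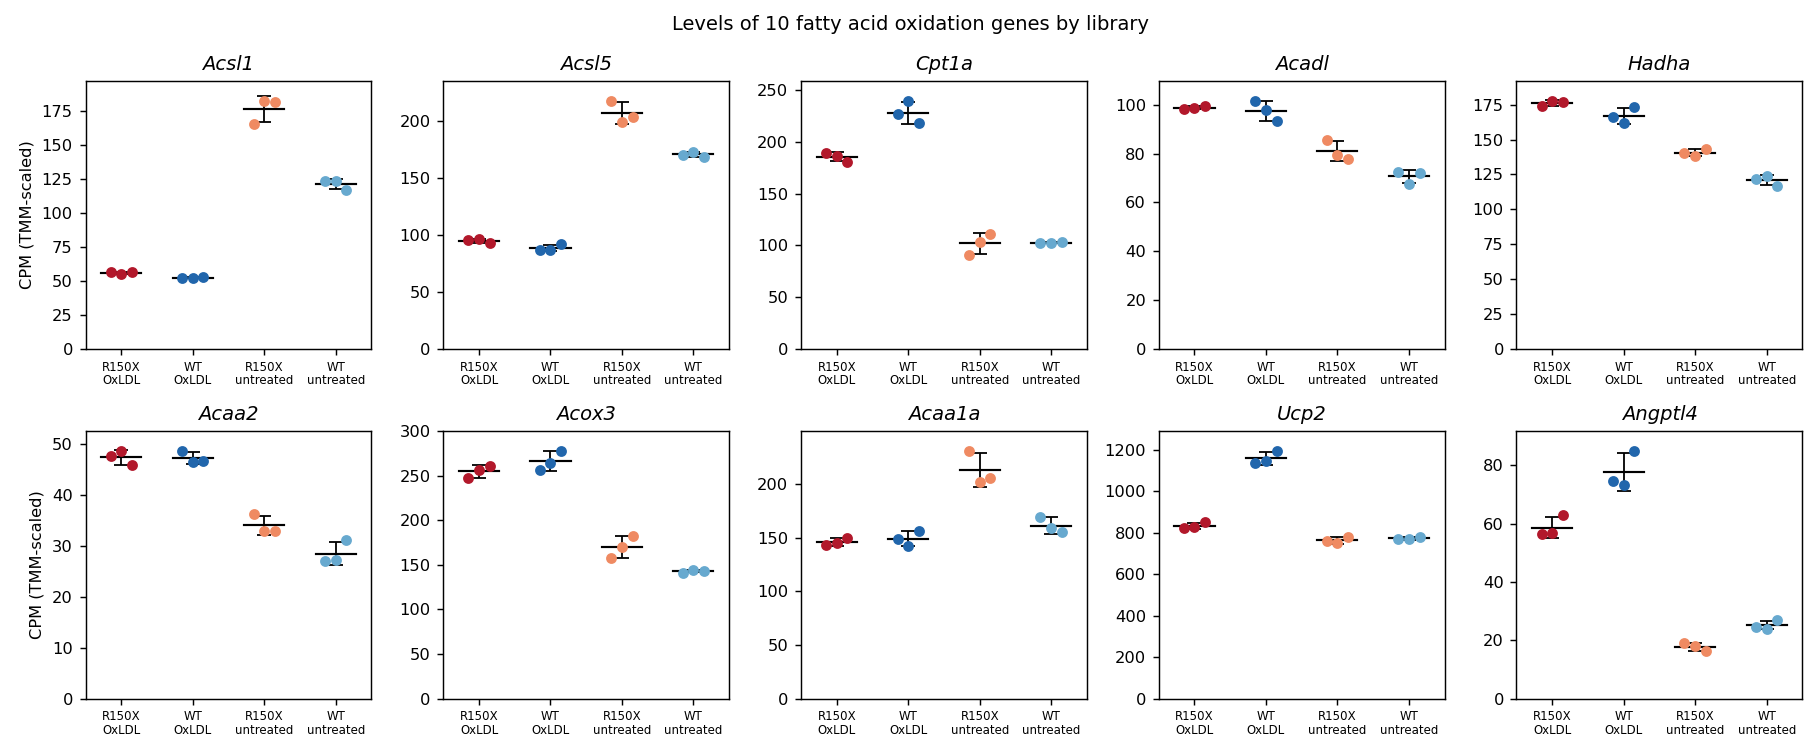
CPM (TMM-scaled) of 10 genes in each library, with the mean and SD of the 3 libraries of a group in black; groups from left to right are OxLDL-treated R150X, OxLDL-treated WT, untreated R150X and untreated WT, and each axis starts at 0. Acsl1 and Acsl5 are lower, and Cpt1a, Acox3 and Angptl4 higher, in both OxLDL-treated groups than in both untreated ones.

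Between the genotypes without OxLDL, most members were modestly higher in R150X cells. Of the 32, 20 rose and 1 fell relative to WT, where 33.0% of all genes passed, 18.1% higher and 14.8% lower. The median member log2 fold change was 0.23, against 0.010 over all genes, and 29 of 32 were above 0 (25 with library size alone, which put Crot, Decr2, Eci2 and Pdk4 below it). The libraries of the genotypes did not overlap for 21 members, and for 46.1% of all genes. The 4 synthetases, the 5 enzymes from hydration to thiolysis and the 3 enzymes grouped under the peroxisome all rose, and Angptl4 was the member that fell. With library size alone 15 members rose and 1 fell.

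**Figure D4:**
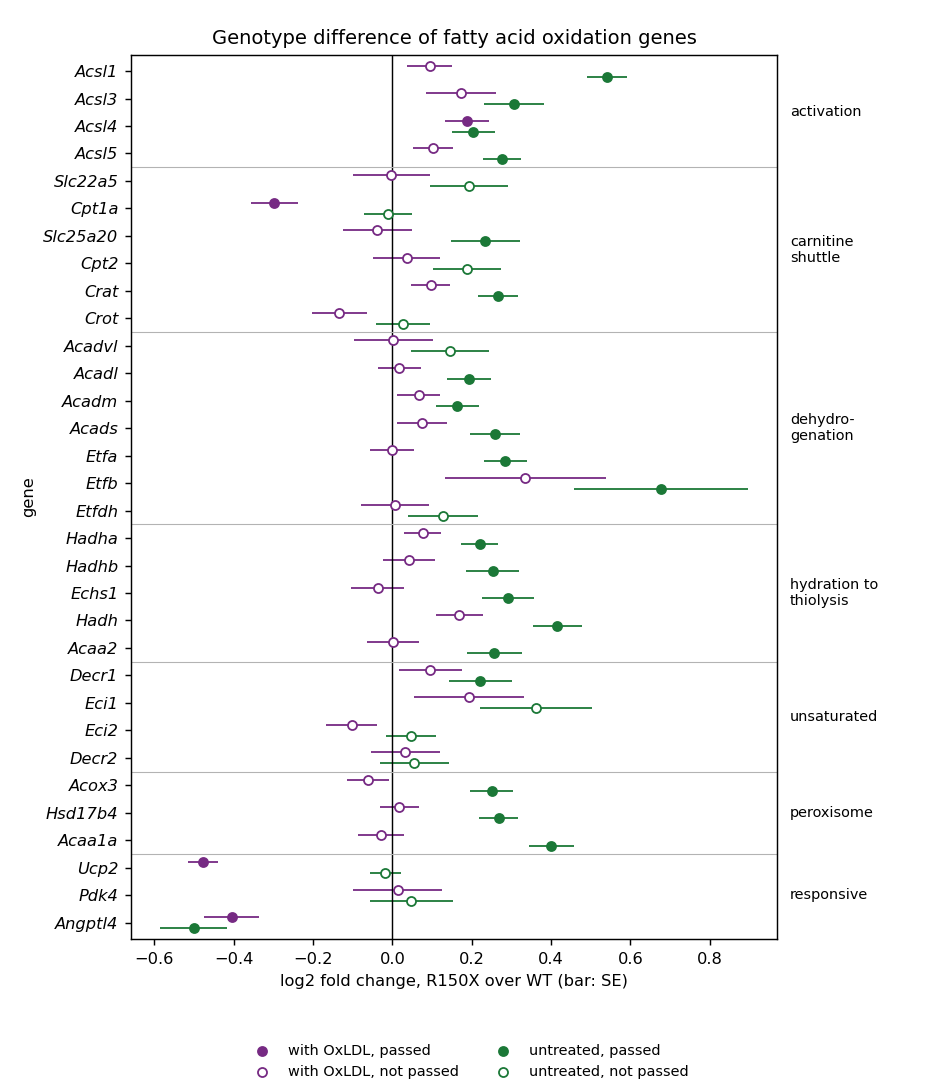
Log2 fold change of each gene (rows, by role) in R150X over WT cells, with OxLDL (purple) and untreated (green), with SE bars; filled points passed adjusted p under 0.05. Most green points lie right of 0 and most purple ones near 0, while Angptl4 lies left of 0 in both, and Cpt1a and Ucp2 lie near 0 untreated and left of it with OxLDL.

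Acsl1 was 1.45 times as high in untreated R150X cells as in WT cells. Acsl1 had 165, 182 and 181 CPM in untreated R150X libraries, against 123, 123 and 117 CPM in untreated WT libraries (log2 fold change 0.54 ± 0.050 SE, adjusted p = 6.23e-08). No R150X library overlapped a WT library. The other synthetases rose by 0.31 for Acsl3, 0.20 for Acsl4 and 0.28 for Acsl5 on the log2 scale, a rise that for Acsl4 did not pass with library size alone (adjusted p = 0.08). Their summed level was 90.8 ± 0.278 RPKM in untreated R150X cells and 73.5 ± 1.64 RPKM in untreated WT cells. In the carnitine shuttle 2 of 6 passed, Crat (log2 fold change 0.27 ± 0.050 SE, adjusted p = 0.000361) and Slc25a20 (log2 fold change 0.23 ± 0.087 SE, adjusted p = 0.0443). That share, 33.3%, was near the 33.0% of all genes that passed. The Slc25a20 call was lost in 8 of the alternatives tried, among them the one without untreated R150X replicate 1, where the log2 fold change was 0.11 (adjusted p = 0.329), and Slc22a5 passed without untreated WT replicate 2 (0.0477). Cpt1a had 91.3, 104 and 111 CPM in untreated R150X libraries, against 102, 102 and 104 CPM in untreated WT libraries, which did not pass (log2 fold change -0.010 ± 0.060 SE, adjusted p = 0.917).

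Of the dehydrogenases and electron carriers, 5 of 7 rose in untreated R150X cells (71.4%, against 33.0% of all genes that passed). Acads had 50.3, 42.6 and 43.4 CPM in untreated R150X libraries, against 36.3, 38.8 and 38.5 CPM in untreated WT libraries (log2 fold change 0.26 ± 0.064 SE, adjusted p = 0.00389). Etfa had 58.7, 54.6 and 54.2 CPM in untreated R150X libraries, against 46.8, 46.6 and 44.0 CPM in untreated WT libraries (log2 fold change 0.28 ± 0.055 SE, adjusted p = 0.000454). Neither gene's R150X libraries overlapped those of WT. Acadl and Acadm rose by 0.19 ± 0.055 and 0.16 ± 0.054 (log2, SE), calls that were lost with library size alone (adjusted p = 0.101 and 0.225), without untreated WT replicate 2 (0.0656 and 0.114) and, for Acadm, without 3 further libraries, with no filter on low counts or with only the untreated groups in the fit. Etfb, the partner subunit of Etfa, was the member with the largest rise (log2 fold change 0.68 ± 0.22 SE, adjusted p = 0.0218). The call was lost without untreated R150X replicate 1 (log2 0.45, adjusted p = 0.146), untreated WT replicate 1 (0.0941) or untreated WT replicate 2 (0.0816), and with only the untreated groups in the fit (0.0541). The ratio of Etfa to Etfb in RPKM was 9.34 ± 2.31 in untreated R150X cells and 12.3 ± 2.92 in untreated WT cells (SD, n = 3 each). Hadh led the next block. Hadh had 39.5, 36.2 and 36.8 CPM in untreated R150X libraries, against 28.8, 28.3 and 27.1 CPM in untreated WT libraries (log2 fold change 0.42 ± 0.062 SE, adjusted p = 2.77e-05). The R150X libraries of Hadh were all above the WT ones. The other 4 rose too, with log2 fold changes of 0.29 for Echs1, 0.26 for Acaa2, 0.25 for Hadhb and 0.22 for Hadha. Among the enzymes of unsaturated chains Decr1 passed (log2 fold change 0.22 ± 0.079 SE, adjusted p = 0.0362), a call lost with library size, with no filter, with DESeq2, with only the untreated groups and without any of 5 libraries, while the values were 0.36 for Eci1, 0.047 for Eci2 and 0.055 for Decr2, none of which passed. Eci1 did pass with no filter (adjusted p = 0.0435) and without untreated R150X replicate 2 (0.0165).

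In peroxisomes Acaa1a was 1.32 times as high in untreated R150X cells as in WT cells. Acaa1a had 231, 202 and 206 CPM in untreated R150X libraries, against 169.7, 159 and 155 CPM in untreated WT libraries (log2 fold change 0.40 ± 0.057 SE, adjusted p = 1.56e-05). The lowest R150X library was above the highest WT library. Hsd17b4 and Acox3 rose by 0.27 ± 0.049 and 0.25 ± 0.054 (log2, SE). Angptl4 went the other way. Angptl4 had 19.1, 18.04 and 16.4 CPM in untreated R150X libraries, against 24.7, 24.0 and 26.8 CPM in untreated WT libraries (log2 fold change -0.50 ± 0.084 SE, adjusted p = 0.000102). All R150X libraries were below the WT ones. Ucp2 and Pdk4 were at -0.018 ± 0.039 and 0.048 ± 0.10 and did not pass.

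With OxLDL, few members differed between the genotypes. In R150X cells 1 rose and 3 fell relative to WT, where 13.0% of all genes passed, 6.10% higher and 6.92% lower. The share of members past the threshold was near that background, the median member log2 fold change was 0.017 against 0.0020 over all genes, and the libraries did not overlap for 13 members and for 30.0% of all genes. Ucp2, Cpt1a and Angptl4 fell and Acsl4 rose. Ucp2 had 821, 826 and 852 CPM in OxLDL-treated R150X libraries, against 1138, 1144 and 1196 CPM in OxLDL-treated WT libraries (log2 fold change -0.48 ± 0.039 SE, adjusted p = 1.42e-08). All 3 treated R150X libraries of Ucp2 were below the WT ones. Cpt1a had 189, 187 and 181 CPM in OxLDL-treated R150X libraries, against 227, 239.8 and 218 CPM in OxLDL-treated WT libraries (log2 fold change -0.30 ± 0.058 SE, adjusted p = 0.00116). Angptl4 had 56.4, 56.7 and 62.8 CPM in OxLDL-treated R150X libraries, against 74.6, 73.4 and 85.0 CPM in OxLDL-treated WT libraries (log2 fold change -0.40 ± 0.069 SE, adjusted p = 0.000309). Neither Cpt1a nor Angptl4 overlapped between the genotypes. Acsl4 was at log2 fold change 0.19 ± 0.055 SE, adjusted p = 0.0258, and the call was lost without OxLDL-treated R150X replicate 1 or 2 or OxLDL-treated WT replicate 2 or 3 (adjusted p = 0.0598 to 0.119). Acsl4 lies on the X chromosome. The other 28 members did not pass (Hadh did with library size alone, adjusted p = 0.0418), with log2 fold changes from -0.13 to 0.33. Of the 32, 28 had a smaller absolute genotype difference with OxLDL than without it. That count was not taken over all genes, of which 1996 passed between the genotypes with OxLDL and 5056 without it.

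The interaction test compared the OxLDL response itself between the genotypes. For 8 members the response was lower in R150X than in WT and for 0 it was higher (at an unadjusted p under 0.05, 16 and 0; DESeq2, 8 and 0), where 8.32% of all genes passed, 5.19% lower and 3.13% higher. The median member difference was -0.17 on the log2 scale, against -0.017 over all genes, and 31 of 32 were below 0. This direction was not particular to the members. Of 8 macrophage markers, 6 passed as lower and 1 as higher (87.5%, median -0.35). Of 12 neutrophil markers, 10 passed the filter on low counts. That filter keeps a gene through the group where it is high, so their tests are not counted here. Of 12 stromal markers, 1 passed as lower and 7 as higher (66.7%, median 0.37). With library size alone the all-gene median of the difference shifted by 0.091, 3 members passed (Acsl1, Acaa1a and Ucp2) and 28 were below 0, with Acsl4, Decr2 and Pdk4 above it. That scaling also moved the share of all genes called as higher to 66.5% of calls, against 37.6% with TMM. The OxLDL responses of both genotypes had the same sign for 31 of 32 members, with Pearson's r = 0.978 and Spearman's rho = 0.949 across the 32 genes, which are not independent replicates and share libraries within each genotype. The same measures were not computed over all genes, so they do not set the members apart.

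**Figure D5:**
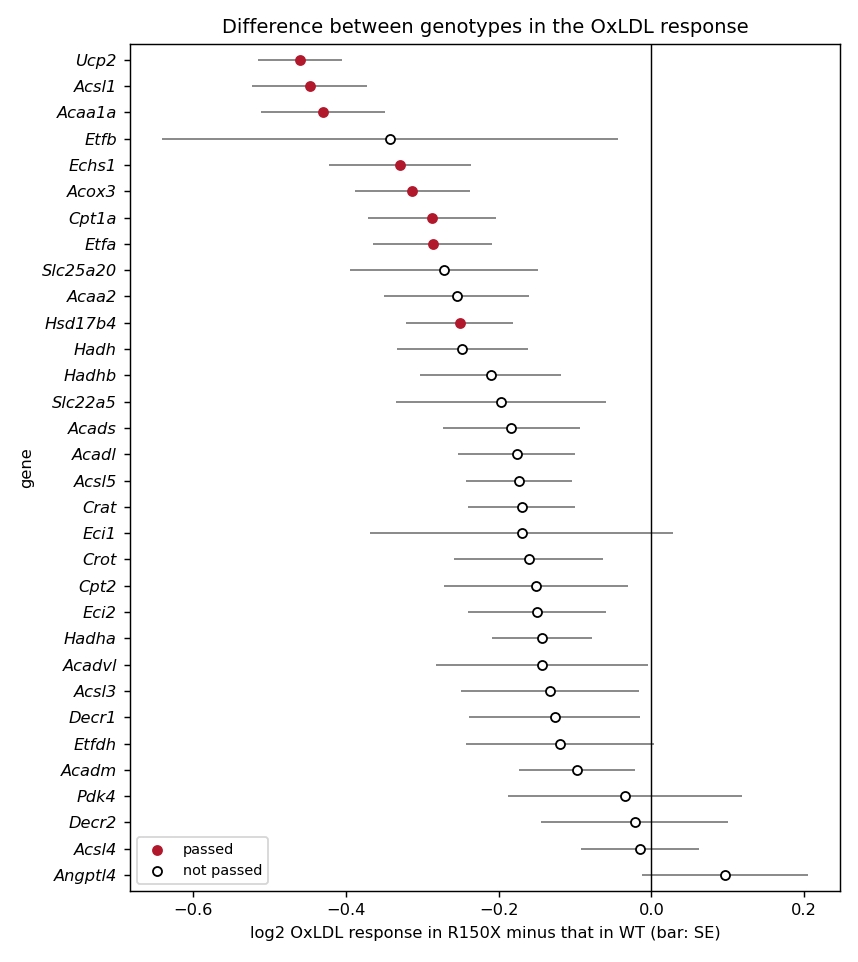
Difference in log2 OxLDL response, R150X minus WT, for each of the 32 genes, sorted, with SE bars; filled points passed adjusted p under 0.05. The 8 filled points lie between -0.46 and -0.25, and Angptl4 alone lies right of 0.

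The 3 differences that passed under every scaling were of 2 kinds. Acsl1 fell more in R150X cells, and Acaa1a fell there and did not pass in WT. The difference was -0.45 ± 0.075 (SE, adjusted p = 0.000504) for Acsl1, and -0.43 ± 0.081 (adjusted p = 0.00157) for Acaa1a, and both started from a higher untreated level in R150X. Ucp2 rose less in R150X, with a difference of -0.46 ± 0.055 (adjusted p = 1.3e-05), from untreated levels whose difference did not pass. The same 3 also passed without each library in turn. Acox3 and Cpt1a rose less in R150X, with differences of -0.31 ± 0.075 (adjusted p = 0.0112) and -0.29 ± 0.084 (adjusted p = 0.0373). Etfa, Echs1 and Hsd17b4 rose in WT and did not pass in R150X, with differences of -0.29 ± 0.078, -0.33 ± 0.093 and -0.25 ± 0.070 (adjusted p = 0.0244, 0.0319 and 0.0291). Acox3, Etfa, Echs1 and Hsd17b4 also started higher in untreated R150X than in untreated WT (log2 0.25, 0.28, 0.29 and 0.27). Cpt1a did not (-0.010). With OxLDL Cpt1a was lower in R150X than in WT (-0.30), and the others did not pass. The same untreated libraries enter the untreated genotype difference and the interaction. Of these 5 genes, Cpt1a lost its interaction call without any of 10 libraries in turn, Echs1 without 8, Hsd17b4 without 5 and Etfa without 4, the last pair also with no filter on low counts, while Acox3 passed without each. The number of members past the threshold was 4 without untreated WT replicate 3 or OxLDL-treated R150X replicate 2, and 5 without untreated WT replicate 2, OxLDL-treated R150X replicate 1 or OxLDL-treated WT replicate 1 or 2. By role, Acox3, Hsd17b4 and Acaa1a, the 3 genes grouped under the peroxisome, all passed, and of these Acaa1a alone did so with library size alone. Crot, Eci2 and Decr2, also peroxisomal but grouped under other roles, did not pass. Activation, the carnitine shuttle, dehydrogenation with electron transfer, hydration to thiolysis and the responsive genes had 1 gene each that passed.

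Genes around the 32 were counted from companion lists. At most 4 genes per list and comparison are named, by smallest adjusted p. A gene named in 1 genotype only may therefore have passed in the other as well. Of 28 other oxidation genes (27 tested), 15 rose and 2 fell with OxLDL in R150X and 18 rose and 1 fell in WT. The share past the threshold was 63.0% in R150X, against 39.0% of all genes (18.4% higher and 20.6% lower), and 70.4% in WT, against 45.8% of all genes (22.7% higher and 23.1% lower). Slc27a1, a fatty acid transport protein, rose by 0.91 and 1.01 (log2, R150X and WT), and Abcd2, a peroxisomal importer of very long chains, by 0.97 and 1.42. The cytosolic thioesterase Acot1, whose close paralog Acot2 makes its counts uncertain, rose by 2.11 and 1.91. Acad10, of the dehydrogenase family, rose by 1.00 in R150X and Mlycd, which removes malonyl-CoA, by 0.53 in WT. Without OxLDL 5 rose and 1 fell in R150X relative to WT, among them Scp2 (0.36), Mlycd (0.41) and Abcd2 (0.43), and with OxLDL 1 rose and 0 fell, that being Acot2 (0.45). These were 22.2% and 3.70% of the genes tested, below the 33.0% and 13.0% of all genes that passed. The interaction called 1, 3.70% of the genes tested against 8.32% of all genes. This was Abcd2, at -0.46 ± 0.12 (adjusted p = 0.0188), a call lost with library size alone (0.0601) and without any of 4 libraries (adjusted p = 0.0513 to 0.0614).

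Of 16 peroxisome biogenesis genes, 7 rose and 0 fell with OxLDL in R150X and 8 rose and 0 fell in WT. These were 43.8% and 50% of the list, near the 39.0% and 45.8% of all genes that passed in either direction, while 18.4% and 22.7% of all genes passed as higher. Pex11a, which drives peroxisome division, led both, at 0.88 in R150X and 0.95 in WT, followed by the import gene Pex6 at 0.34 and 0.44; Pex11g (0.88) and Pex3 (0.34, lost without OxLDL-treated R150X replicate 2, adjusted p = 0.0785) were next in R150X, and Pex7 (0.47) in WT. Between untreated genotypes 4 rose and 0 fell: Pex16 (0.42), Pex6 (0.20), Pex14 (0.25) and Pex7 (0.24). The list's 25% was below the 33.0% of all genes that passed. The calls of Pex6, Pex14 and Pex7 were lost with library size alone (adjusted p = 0.173, 0.135 and 0.157) and without any of 5, 4 and 4 libraries in turn (adjusted p = 0.05 to 0.179). Those of Pex14 and Pex7 were also lost with DESeq2 (adjusted p = 0.0579 and 0.0675), with no filter on low counts and with only the untreated groups in the fit, and DESeq2 called 2 of the 16. With OxLDL Pex16 alone passed between the genotypes, 6.25% of the list against 13.0% of all genes. It was higher in R150X by 0.37, a call lost without any of 4 libraries (adjusted p = 0.0762 to 0.131). The edgeR interaction called 0 of the 16, against 8.32% of all genes (1 higher and 1 lower at an unadjusted p under 0.05; DESeq2, 0).

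Of 20 regulators (18 tested), 6 rose and 1 fell with OxLDL in R150X and 7 rose and 2 fell in WT. These were 38.9% and 50% of the genes tested, near the 39.0% and 45.8% of all genes. The nuclear receptor Rxra, partner of the PPARs, rose by 0.51 in R150X and 0.61 in WT, the coactivator and phosphatase Lpin1 by 0.49 and 0.74, and the kinase Pdk2 by 0.49 and 0.62. The mitochondrial deacetylase Sirt3 rose by 0.61 in R150X, and Pparg, a fatty acid-sensing receptor, by 0.37 in WT. In untreated R150X cells 3 rose and 3 fell relative to WT, 33.3% of those tested against 33.0% of all genes. Pparg rose by 0.64 and Esrra, an estrogen-related receptor, by 0.42, while the corepressor Ncor1 and the receptor Ppard were at -0.31 and -0.17; the Ppard call was lost without any of 3 libraries and with no filter on low counts. With OxLDL 22.2% of those tested differed between the genotypes, against 13.0% of all genes. Pparg was higher in R150X by 0.26, and Lpin1, Ppard and Pdk1 were lower, at -0.29 for Lpin1, -0.19 for Ppard and -0.18 for Pdk1, where DESeq2 called 1 higher and 1 lower. Apart from Lpin1 these were lost without any of 3 to 5 libraries, and those of Ppard and Pdk1 also with library size alone, with no filter and with DESeq2. The interaction called 1 regulator, 5.56% of those tested against 8.32% of all genes. This was Pparg, at -0.38 ± 0.10 (adjusted p = 0.0162), lost with library size alone (0.0623) and without OxLDL-treated WT replicate 1 (0.0583).

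Of the 8 macrophage markers, 4 passed as higher and 4 as lower with OxLDL in R150X, and 4 and 2 in WT. Relative to WT, R150X cells had 3 higher and 2 lower untreated, and 1 and 5 with OxLDL. In these 4 comparisons 39.0%, 45.8%, 33.0% and 13.0% of all genes passed. Markers of other cell types moved along the same contrasts. Summed markers of adipocytes, a cell type rich in Angptl4, Pparg and oxidation enzymes, were at 38.6 to 44.1 CPM in OxLDL-treated R150X, 2.36 to 4.36 CPM in OxLDL-treated WT, 3.13 to 4.40 CPM in untreated R150X and 0.738 to 1.02 CPM in untreated WT libraries, with Lep at 0 in all 12. Stromal markers were at 7775 to 8067, 8069.8 to 8659.9, 11565 to 11751 and 16805 to 16954 CPM in the same order, and neutrophil markers at 114 to 117, 236 to 250.5, 373 to 393 and 654 to 691 CPM. Of the 12 stromal markers, 2 passed as higher and 9 as lower in untreated R150X relative to WT (91.7%, against 33.0% of all genes). With OxLDL 1 rose and 8 fell in R150X (75.0%, against 39.0%), and 0 and 8 in WT (66.7%, against 45.8%). Between OxLDL-treated genotypes 1 was higher and 4 lower in R150X (41.7%, against 13.0%). The interaction called 7 as higher and 1 as lower (66.7%, against 8.32%). Of the 7 adipocyte markers, 3 passed the filter on low counts, which keeps a gene through the group where it is high, so their tests are not counted here. The part of these cells in the levels of the 32 genes was not tested. In bulk RNA, fewer cells of a type and less RNA per cell cannot be told apart.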

How the data were processed

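Total RNA of 12 libraries of mouse bone marrow-derived macrophages was sequenced. The authors deposited 1 table of raw counts per gene, whole numbers with no normalization; the submitters' processing notes name FastQC, HISAT2, featureCounts, DESeq2, mm10 and GRCm38, with no versions, and the strand setting is not given in the sources used here. Gene names, exon lengths and exon overlaps came from GENCODE M21 (GRCm38), which matched 54409 of 54532 IDs, and promoters from RefSeq (GRCm38.p6). Counts were filtered by filterByExpr (15338 genes kept), scaled by TMM and fitted in 1 edgeR quasi-likelihood model (edgeR 4.0.16, R 4.3.3) with a coefficient for each of the 4 groups. Groups were compared by treatment within genotype, by genotype within treatment and by the interaction, with Benjamini-Hochberg adjustment over all genes tested and a threshold of 0.05. SE is the log2 fold change divided by the square root of F. CPM and RPKM were computed here from the deposited counts with TMM scaling, RPKM over the union of exons, which includes UTRs and takes no account of which isoform is expressed. Values in CPM follow the library's whole RNA, so a change in other genes can move them.

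The 32 members, the companion and marker lists and the motifs were chosen with earlier results of these data known. All members are named, and from each companion list at most 4 genes per comparison with the smallest adjusted p past the threshold. Some companion genes that this rule names are not reported here. Libraries of 14838969 to 18222868 counts gave member CVs with medians of 3.03% to 5.71% within groups. The common biological coefficient of variation was 0.0608. Alternatives were relative log expression scaling, library size alone, no filter, DESeq2 1.42.0, only the groups compared, a replicate block and leaving out each library; the same alternatives were run for the named companion genes after the data were seen.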

Additional observations from a re-analysis of the deposited data

Results flagged for a closer look

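The difference between genotypes in the OxLDL response passed the interaction test for 8 of the 32 genes, and each of these is given here for that reason, as the response in R150X minus that in WT on the log2 scale. It was -0.46 for Ucp2, -0.45 for Acsl1, -0.43 for Acaa1a, -0.33 for Echs1, -0.31 for Acox3, -0.29 for Cpt1a, -0.29 for Etfa and -0.25 for Hsd17b4. Acsl1 fell with OxLDL in R150X by more than in WT, Acaa1a fell in R150X and did not pass in WT, and the other 6 rose in WT by more than in R150X. All but Ucp2 and Cpt1a were already higher in untreated R150X than in untreated WT, and the same untreated libraries enter both differences. Of the companion genes, Abcd2 (-0.46) and Pparg (-0.38) also passed. All 8 members have a negative difference, and 8.32% of all genes passed this test, 5.19% lower and 3.13% higher. Of 8 macrophage markers, 6 passed as lower and 1 as higher. Adipocyte markers summed to 38.6 to 44.1 CPM in OxLDL-treated R150X and 2.36 to 4.36 CPM in OxLDL-treated WT libraries, and to 3.13 to 4.40 CPM in untreated R150X and 0.738 to 1.02 CPM in untreated WT libraries; their part in these differences was not tested.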

How the results depend on the processing

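Of the counts of members past the threshold, the one for the interaction moved by more than 1.5 times: it was 8 with TMM, relative log expression or DESeq2, 6 with no filter on low counts, 3 with library size alone, and 4 to 8 without each library in turn. Without each library in turn the other counts of members were 17 to 21 for R150X against WT untreated (21 in the full fit), 3 to 4 with OxLDL (4), 18 to 22 for OxLDL in R150X (20) and 24 to 27 for OxLDL in WT (27). Where an arm then held 2 libraries, the spread was shared with the other groups. No called value of a member or named companion gene changed sign under these alternatives. Of 124 such called values, 30 lost the call under at least 1 alternative, and of 80 values not called, 10 gained it. Library size alone also moved the share of all calls that were higher to 36.1%, against 55.0% with TMM, for untreated R150X against WT, and to 31.6%, against 49.6%, for OxLDL in WT; the cause was not tested. Etfb had 776 counts over 12 libraries and the largest within-group CV of the members, 27.9% in untreated R150X cells. The part of depth in that spread was not tested. The replicate block gave 22, 4, 20, 28 and 8 members past the threshold (untreated genotype, OxLDL genotype, OxLDL in R150X, OxLDL in WT, interaction), against 21, 4, 20, 27 and 8 without it, the added one being Eci1 (adjusted p = 0.0212 untreated and 0.0234 for OxLDL in WT). Deviations of same-numbered libraries correlated weakly, at -0.078 to 0.13. In the genotype comparisons (0.044 to 0.13) each library correlated best with its own number. In the treatment comparisons (-0.078 to 0.084) most did not. The labels do not say whether replicate numbers pair the libraries, and the main fit used no pairing.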
